A study of Mus musculus with 12 samples.

Results

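The transcription factors of mesenchymal transition described here are the 8 genes of the Snail, Zeb, Twist and Prrx families, which are *Snai1*, *Snai2*, *Zeb1*, *Zeb2*, *Twist1*, *Twist2*, *Prrx1* and *Prrx2*. They were chosen by gene name among the 35727 Ensembl genes of the deposited bulk RNAseq counts. Each symbol matched 1 gene, and all 8 passed the filter on low counts that 15506 genes passed. The study infected cardiac fibroblasts of neonatal C57BL/6J mice with retroviruses carrying *Sox17* and *Erg*, in order to obtain induced endothelial cells (iECs), and compared them with control fibroblasts at Days 3 and 7 and at Week 4. The hearts of Day 0 to Day 3 pups were pooled, and the methods describe THY1 selection of the fibroblasts before plating on collagen. Depletion of PECAM1+ cells is an option in the methods. The paper states that this step was added for the characterization of the iECs, the part that holds the bulk RNAseq. The methods also give a *Tcf21*-CreERT2 crossed to Rosa26-tdTomato line as a source of cells, and the labels do not name the strain of each library. Both arms grew in EGM2, an endothelial growth medium, and the controls are named in the count table after the retroviral backbone, pMX, while what their virus encoded is not given in the sources used here. Each of the 6 groups of treatment and time point had 2 libraries. The labels do not say whether these came from separate fibroblast isolations, so p-values measure the spread between these libraries, which may be technical.

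The Snail and Zeb proteins are zinc finger factors that bind E-box sequences and repress genes of cell junctions, among them *Cdh1*, which encodes E-cadherin. Twist proteins are basic helix-loop-helix factors that bind E-boxes as dimers with E proteins or with each other, and Prrx proteins are paired-related homeodomain factors of limb, craniofacial and cardiac mesenchyme. Cells use these factors to leave an epithelium or an endothelium, as endocardial cells do when they form the heart cushions, and many fibroblasts keep several of them on. The comparison of *Sox17*-*Erg* with control samples therefore asks what becomes of a mesenchymal program in fibroblasts that are directed toward an endothelial fate.

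The libraries held between 19011635 and 41240449 counts. *Sox17* was at 432 to 1040 TMM-normalized CPM (counts scaled to a common library size) in the *Sox17*-*Erg* libraries and at no more than 9 counts in any control library, and *Erg* was at 17.1 to 65.2 CPM against 0.0728 to 2.27 CPM, so every library matched its label. All 10 fibroblast markers checked were detected in all 12 libraries. Levels below are TMM-normalized CPM. Fold changes are of *Sox17*-*Erg* over control on the log2 scale with their standard error (SE), and adjusted p-values are Benjamini-Hochberg values of edgeR's quasi-likelihood test over all 15506 genes. A gene was called at an adjusted p under 0.05. Same-numbered libraries of both arms deviated together at each time point. The value with the replicate number as a block within the time point is therefore given wherever it changed the call of a factor. For lists it is given wherever it changed their counts, except for the markers of cell types.

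The 8 factors did not move as one group. At Week 4 *Prrx2* rose and *Snai2*, *Twist2* and *Prrx1* fell, at Day 7 *Zeb1* and *Twist2* fell, and at Day 3 *Twist1* rose. The call count was 1 of 8 factors higher at Day 3, where 7.19% of all tested genes were called higher, and 0 lower, where 5.13% were. With edgeR at an unadjusted p under 0.05, 3 factors were lower at Day 3, and DESeq2 called 3 lower. At Day 7 it was 0 higher against 9.48% of all genes, with 1 at an unadjusted edgeR p under 0.05 and 1 by DESeq2, and 2 lower against 7.93%. At Week 4 it was 1 higher against 11.9% and 3 lower against 11%. With the replicate block the counts were 1 higher and 3 lower on Day 3, 1 higher and 4 lower on Day 7, and 2 higher and 5 lower at Week 4. The median log2 fold change of the 8 factors was -0.40 at Day 3, -0.35 at Day 7 and -0.52 at Week 4, where the median of all tested genes was 0.01, 0.006 and -0.014. In 5 factors at Day 3 both *Sox17*-*Erg* libraries lay below both controls, as they did in 29.9% of all genes, and in 1 they lay above, as in 34.1%. For Day 7 this was 4 below (28.8%) and 2 above (29%), and for Week 4 it was 5 below (32.5%) and 3 above (30.3%). These are bulk cultures, in which fewer cells of a kind and less RNA per cell cannot be told apart.

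**Figure D1:**
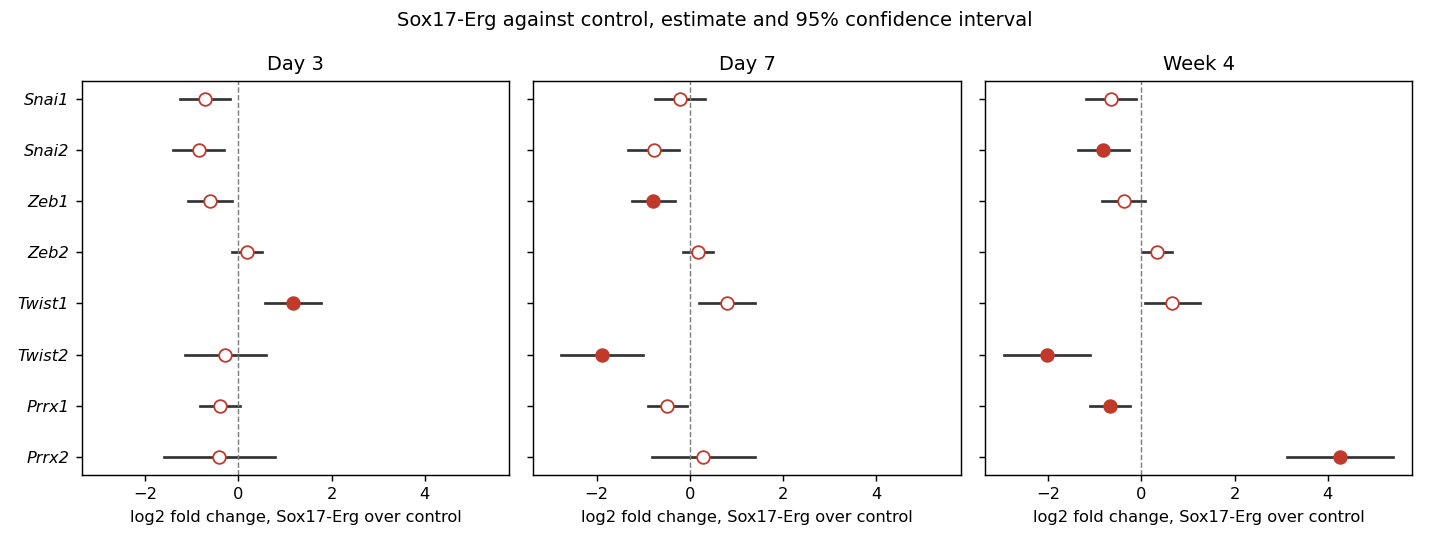
The log2 fold change of *Sox17*-*Erg* over control is plotted for each of the 8 factors at Days 3 and 7 and at Week 4, with points for the edgeR estimate and bars for its 95% confidence interval. Filled points were called at an adjusted p under 0.05, and *Prrx2* at Week 4, at 4.26, lies apart from the other 7 factors.

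*Snai1* (ENSMUSG00000042821, GRCm38 chr2:167538195-167542814, plus strand), which encodes Snail, lay lower with *Sox17*-*Erg* at each time point, and whether it passed the test at Day 3 and at Week 4 depended on the setting. Its control libraries held 106 and 145 CPM on Day 3, 85.0 and 103 on Day 7, and 85.4 and 88.45 at Week 4. The *Sox17*-*Erg* libraries held 59.7 and 93.6 CPM on Day 3, 68.9 and 93.6 on Day 7, and 55.6 and 54.7 at Week 4. Both *Sox17*-*Erg* libraries lay below both controls at Day 3 and at Week 4, and the arms overlapped at Day 7. The log2 fold changes were -0.71 (SE 0.24, adjusted p = 0.079), -0.21 (SE 0.235, adjusted p = 0.57) and -0.66 (SE 0.24, adjusted p = 0.076). With the replicate block, *Snai1* was called lower at Day 3 (-0.73, adjusted p = 0.0039) and at Week 4 (-0.66, adjusted p = 0.0028). Of the 10 other settings tried, 5 called it at Day 3, among them DESeq2 (-0.73, adjusted p = 0.026) and no filter (-0.71, adjusted p = 0.0052), and 6 at Week 4, among them DESeq2 (-0.65, adjusted p = 0.044), no filter (-0.66, adjusted p = 0.0069) and a fit of the Week 4 libraries alone (-0.63, adjusted p = 0.015). It was also called lower at Day 3 without *Sox17*-*Erg* replicate 2 of that day (-1.08, adjusted p = 0.037), and at Week 4 without either *Sox17*-*Erg* library of Day 3 (adjusted p = 0.046 and 0.045).

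The *Snai1* promoter is shown because Snail and Zeb proteins bind the E2-box letters CACCTG, and Snail is known to act on its own gene. The window is the 250 bases before the RefSeq start (GRCm38.p6, chr2:167537945-167538194, plus strand), searched on both strands for CACCTG, for CCGGAA as core letters of ETS factors such as ERG, and for ACAAT as core letters of SOX factors. Across 32851 promoter windows of the same length, 17.2% held CACCTG, 12% CCGGAA and 27.7% ACAAT. The capitals mark the 1 match, a CACCTG that starts at -126 from the start site.
Snai1: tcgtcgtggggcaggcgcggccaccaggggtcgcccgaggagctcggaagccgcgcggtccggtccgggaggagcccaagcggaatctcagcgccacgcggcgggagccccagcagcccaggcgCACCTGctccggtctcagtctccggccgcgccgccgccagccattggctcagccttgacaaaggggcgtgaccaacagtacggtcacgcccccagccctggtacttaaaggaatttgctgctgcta
A match of letters is a description and does not show binding.

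*Snai2* (ENSMUSG00000022676, chr16:14705852-14709385, plus strand), which encodes Slug, was low in all 6 *Sox17*-*Erg* libraries. Control libraries held 41.7 and 42.0 CPM on Day 3, 32.45 and 44.7 on Day 7, and 31.4 and 36.7 at Week 4. *Sox17*-*Erg* libraries held 18.8 and 27.5 CPM, 18.2 and 27.1, and 20.9 and 17.8. The highest *Sox17*-*Erg* value, at 27.5, was below the lowest control value of any time point. The log2 fold change was -0.85 at Day 3 (SE 0.24, adjusted p = 0.052), -0.77 at Day 7 (SE 0.24, adjusted p = 0.058) and -0.82 at Week 4 (SE 0.24, adjusted p = 0.04), so *Snai2* fell at Week 4, to a level 1.76-fold lower than control. With the replicate block it was called at Day 3 (-0.88, adjusted p = 0.012) and Day 7 (-0.78, adjusted p = 0.014) as well, as it was in 9 and 5 of the 10 other settings, DESeq2 among them (adjusted p = 0.011 and 0.021). The Week 4 call was lost without either control library of Day 3 (adjusted p = 0.063 and 0.073), either control library of Week 4 (0.083 and 0.16) or either *Sox17*-*Erg* library of Week 4 (0.1 and 0.15). *Snai2* was called lower at Day 3 without control replicate 1 of Day 7 (adjusted p = 0.046), *Sox17*-*Erg* replicate 2 of Day 3 (0.045), or *Sox17*-*Erg* replicates 1 or 2 of Day 7 (0.037 and 0.032). It was called lower at Day 7 without control replicate 1 of Day 7 (0.048), *Sox17*-*Erg* replicate 1 of Day 3 (0.045) or *Sox17*-*Erg* replicate 2 of Day 7 (0.028).

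*Zeb1* (ENSMUSG00000024238, chr18:5591860-5775467, plus strand) and *Zeb2* (ENSMUSG00000026872, chr2:44983632-45117395, minus strand) encode closely related repressors with zinc finger clusters at both ends and a homeodomain between them. *Zeb1* held 130.4 and 135.5 CPM in the control libraries of Day 3, 129 and 192 at Day 7, and 166 and 160.4 at Week 4. In the *Sox17*-*Erg* libraries it held 78.4 and 95.6 CPM, 78.7 and 108, and 133 and 118. No *Sox17*-*Erg* library reached a control library of its own time point. *Zeb1* fell at Day 7, by 0.78 on the log2 scale (SE 0.21, adjusted p = 0.032), a level 1.72-fold lower. At Day 3 the fold change was -0.61 (SE 0.21, adjusted p = 0.085) and at Week 4 -0.38 (SE 0.21, adjusted p = 0.22), and the replicate block called both, with adjusted p = 0.0072 and 0.026. Of the 10 other settings 5 called *Zeb1* at Day 3, DESeq2 among them (-0.63, adjusted p = 0.033). The Day 7 call was lost in a fit of the Day 7 libraries alone (-0.80, adjusted p = 0.14), and without either control library of Day 3 (adjusted p = 0.052 for each), control replicate 2 of Day 7 (-0.47, adjusted p = 0.2) or *Sox17*-*Erg* replicate 1 of Day 7 (-0.57, adjusted p = 0.23). *Zeb1* was called at Day 3 without control replicate 1 of Day 7 (adjusted p = 0.046).

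*Zeb2* was not called between the arms, and its estimates lay above 0 where those of *Zeb1* lay below. Control libraries held 107 and 126 CPM on Day 3, 111 and 141 on Day 7, and 143 and 147 at Week 4. *Sox17*-*Erg* libraries held 126 and 139 CPM, 143 in both, and 197 and 169.5. The *Sox17*-*Erg* libraries lay above the controls at Day 7 and at Week 4 and overlapped them at Day 3. The log2 fold changes of 0.19 (SE 0.14), 0.18 (SE 0.14) and 0.335 (SE 0.14) had adjusted p = 0.42, 0.42 and 0.13. At Day 7 the value was -0.007 without control replicate 1. Genes on the opposite strand overlap exons of both Zeb genes (*Gm10125* with *Zeb1*, *Zeb2os* and *Gm27761* with *Zeb2*), and *Mir5129* overlaps *Zeb2* on its own strand. They were not analysed here, and whether the counting kept the strand of these stranded libraries is not given in the sources used here, so the levels, ratios and shares of the Zeb genes may hold some of their reads. *Zeb2* is also a gene of macrophages, and their part in its levels was not tested. The 10 macrophage markers summed to 47.8 and 432 CPM in the 2 control libraries of Week 4, whose *Zeb2* levels were 143 and 147 CPM. In the control libraries of Day 7 the markers summed to 915 and 1320 CPM, with *Zeb2* at 111 and 141 CPM. In the *Sox17*-*Erg* libraries of Day 7 they summed to 282 and 455 CPM, with *Zeb2* at 143 CPM in both. Their sum ranged from 47.8 to 1320 CPM over the control and from 69.7 to 455 CPM over the *Sox17*-*Erg* libraries, and none of the 10 was called at any time point by edgeR or by DESeq2, or had an unadjusted edgeR p under 0.05.

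**Figure D2:**
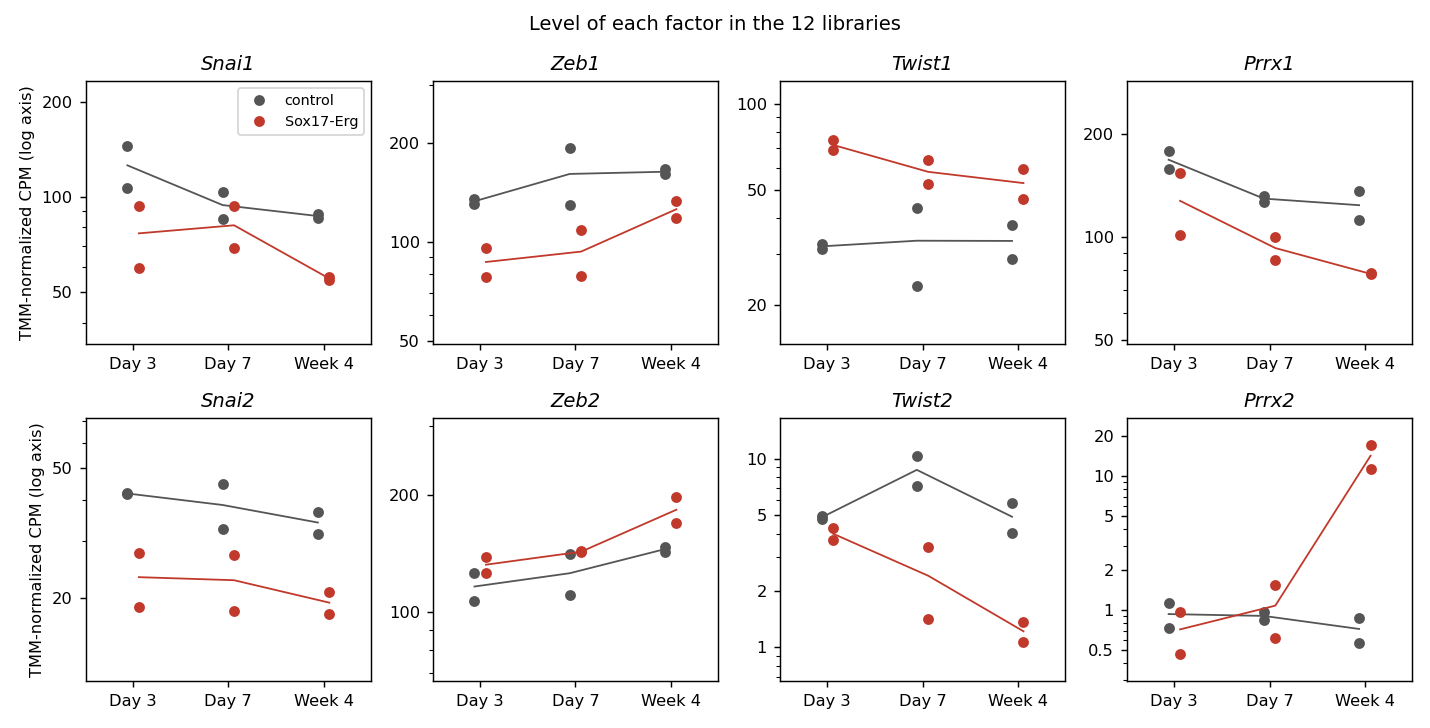
Each panel plots 1 factor, with TMM-normalized CPM on a log axis against time point, a point for each library (gray for control, red for *Sox17*-*Erg*) and lines through the means of 2 libraries. *Prrx2* in the *Sox17*-*Erg* libraries of Week 4, at 17.0 and 11.3 CPM, stands over 10 libraries that reach at most 1.54 CPM.

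*Twist1* (ENSMUSG00000035799, chr12:33957671-33959829, plus strand) and *Twist2* (ENSMUSG00000007805, chr1:91801461-91848028, plus strand) encode closely related basic helix-loop-helix proteins, and their calls lay in opposite directions, at different time points. *Twist1* held 32.6 and 31.3 CPM in the control libraries of Day 3, 43.5 and 23.35 at Day 7, and 37.8 and 28.95 at Week 4. In the *Sox17*-*Erg* libraries it held 75.05 and 68.9 CPM, 63.55 and 52.5, and 46.6 and 59.5. All 6 *Sox17*-*Erg* values exceeded all 6 control values. *Twist1* rose 2.25-fold at Day 3 (log2 1.17, SE 0.27, adjusted p = 0.025). Its fold change was 0.80 at Day 7 (SE 0.265, adjusted p = 0.069) and 0.67 at Week 4 (SE 0.26, adjusted p = 0.1), and the replicate block called both, with 0.85 (adjusted p = 0.023) and 0.67 (adjusted p = 0.047). Of the 10 other settings 5 called it at Day 7, DESeq2 among them (0.79, adjusted p = 0.03), and 2 at Week 4. The Day 3 call was lost without any 1 of the 4 libraries of that day, with adjusted p = 0.12 and 0.16 without control replicates 1 and 2, and 0.17 and 0.057 without *Sox17*-*Erg* replicates 1 and 2. *Twist1* was called at Day 7 without control replicate 1 of that day (1.29, adjusted p = 0.01), and at Week 4 without either control library of Day 7 (adjusted p = 0.023 and 0.027).

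*Twist2* fell with *Sox17*-*Erg* from Day 7 on. The control libraries held 4.77 and 4.99 CPM on Day 3, 7.14 and 10.3 on Day 7, and 5.81 and 4.03 at Week 4. The *Sox17*-*Erg* libraries held 3.69 and 4.31 CPM on Day 3, 1.41 and 3.38 on Day 7, and 1.06 and 1.37 at Week 4. The arms did not overlap at any time point, though at Day 3 they lay close together. At Day 3 the log2 fold change was -0.285 (95% interval -1.15 to 0.58, adjusted p = 0.67). *Twist2* was 3.69-fold lower at Day 7 (log2 -1.88, SE 0.39, adjusted p = 0.012) and 4.05-fold lower at Week 4 (log2 -2.02, SE 0.41, adjusted p = 0.0075). The Day 7 call was lost in a fit of that day's libraries alone (-1.90, adjusted p = 0.081), and without control replicate 2 (-1.60, adjusted p = 0.07) or *Sox17*-*Erg* replicate 1 (-1.36, adjusted p = 0.066) of Day 7. The Week 4 call was lost without *Sox17*-*Erg* replicate 1 of Week 4 (-1.85, adjusted p = 0.067). An antisense gene, *Gm29100*, overlaps *Twist2* exons and was not analysed here, and reads of the 2 can be told apart only if the counting kept the strand of these stranded libraries, which is not given in the sources used here.

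The promoters of the Twist genes are shown because the calls of these genes of one family lay in opposite directions. Each is the 250 bases before the RefSeq start in GRCm38.p6, *Twist1* at chr12:33957421-33957670 and *Twist2* at chr1:91801211-91801460, both on the plus strand. The capitals mark the 1 match of the 3 motifs searched in *Snai1*, a SOX core read on the reverse strand that starts at -190 in *Twist1*. The *Twist2* window held none of the 3 motifs, nor did the windows of *Prrx1* and *Prrx2* or the 4 of *Zeb2*. All 250 bases of the *Prrx2* window lie in an annotated *Prrx2* exon inside the gene, the *Prrx1* window overlaps the first exon by up to 60 bases, and 3 of the 4 *Zeb2* windows overlap exons of *Zeb2*, 2 of them also of *Zeb2os*, so these are not plain upstream sequence. All 250 bases of the *Twist2* window lie in an exon of the antisense gene *Gm29100*.
Twist1: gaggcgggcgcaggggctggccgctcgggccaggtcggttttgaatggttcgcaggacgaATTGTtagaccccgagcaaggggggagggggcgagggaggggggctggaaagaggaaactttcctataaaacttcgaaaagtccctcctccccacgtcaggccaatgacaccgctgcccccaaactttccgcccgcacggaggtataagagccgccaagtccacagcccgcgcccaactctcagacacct
Twist2: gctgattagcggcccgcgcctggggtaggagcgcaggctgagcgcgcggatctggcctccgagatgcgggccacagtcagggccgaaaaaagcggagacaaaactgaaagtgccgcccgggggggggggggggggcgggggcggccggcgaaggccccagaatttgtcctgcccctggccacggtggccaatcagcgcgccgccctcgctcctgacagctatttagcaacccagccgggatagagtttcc

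*Prrx1* (ENSMUSG00000026586, chr1:163245119-163313710, minus strand), a factor of stromal cells, was among the more abundant of the 8 genes and fell at Week 4. Control libraries held 158 and 178 CPM on Day 3, 127 and 132 on Day 7, and 136 and 112 at Week 4. *Sox17*-*Erg* libraries held 101 and 154 CPM, 85.6 and 99.9, and 78.2 and 77.7. Each *Sox17*-*Erg* library lay below both controls of its time point. The log2 fold change was -0.40 at Day 3 (SE 0.19, adjusted p = 0.19), -0.48 at Day 7 (SE 0.19, adjusted p = 0.11) and -0.67 at Week 4 (SE 0.19, adjusted p = 0.033), a level 1.59-fold lower. The block called it at Day 7 too (-0.48, adjusted p = 0.034). The Week 4 call was lost without control replicate 2 of Day 3 (-0.63, adjusted p = 0.057), control replicate 1 of Week 4 (-0.52, adjusted p = 0.19), or *Sox17*-*Erg* replicate 1 (adjusted p = 0.13) or 2 (adjusted p = 0.1) of Week 4. *Prrx1* was called at Day 3 without *Sox17*-*Erg* replicate 2 of Day 3 (-0.74, adjusted p = 0.037), and at Day 7 without either *Sox17*-*Erg* library of Day 3 (adjusted p = 0.036 and 0.046).

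*Prrx2* (ENSMUSG00000039476, chr2:30834972-30881251, plus strand), its paralog, was the least abundant factor in the controls and showed the largest change of the 8. Control libraries held 31 and 16 counts on Day 3, 22 and 24 on Day 7, and 35 and 14 at Week 4, which is 0.569 to 1.13 CPM. *Sox17*-*Erg* libraries held 19 and 11 counts on Day 3, 56 and 14 on Day 7, and 481 and 306 at Week 4. In CPM these were 0.962 and 0.474, then 1.54 and 0.615, then 17.0 and 11.3. The arms overlapped at Day 3 and Day 7 and lay far apart at Week 4. *Prrx2* rose 19.2-fold at Week 4 (log2 4.26, SE 0.505, 95% interval 3.12 to 5.40, adjusted p = 0.00049), a call that stood in every alternative fit and without any single library. At Day 3 the log2 fold change was -0.405 (SE 0.52, adjusted p = 0.65) and at Day 7 0.29 (SE 0.49, adjusted p = 0.73). Both early values turned sign when 1 library was left out, to 0.03 at Day 3 without *Sox17*-*Erg* replicate 2 and to -0.55 at Day 7 without *Sox17*-*Erg* replicate 1.

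An exact two-sided permutation test of log2 CPM within time points took each factor over all 3 of them, and could reach p = 0.0093 at the smallest in 216 arrangements. A single time point, 2 libraries against 2, cannot go below 0.33. The smallest p was reached by *Snai2*, *Zeb1*, *Twist2* and *Prrx1*, which were lower, and by *Twist1*, which was higher. Reaching it takes arms that do not overlap at any time point in the same direction, which 13.6% of all tested genes did downward and 14.6% upward, or 28.3% in all. *Snai1* (exact permutation p = 0.019, mean log2 difference -0.54) and *Zeb2* (exact permutation p = 0.019, 0.24) each overlapped at 1 time point. For *Prrx2* the exact permutation p was 0.21. With same-numbered libraries taken as pairs, a test added after seeing the data, *Snai1*, *Snai2*, *Zeb1*, *Twist2* and *Prrx1* were lower in 6 of 6 pairs, as were 20.1% of all genes, and *Zeb2* and *Twist1* were higher in 6 of 6, as were 20.5%. Each of these 7 had an exact permutation p of 0.031, the smallest that 64 sign flips can give, and *Prrx2*, higher in 3 of 6 pairs, had an exact permutation p of 0.31. None of these p-values is adjusted, and both tests take the time points as independent of each other. Same-numbered libraries of Days 3 and 7 deviated together within an arm (r = 0.174 in control and 0.219 in *Sox17*-*Erg* samples).

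The change over time was taken from Day 3 to Week 4 within each arm. No factor was called in control samples, against 13.9% of all genes higher and 12.6% lower, and DESeq2 called none. At an unadjusted p under 0.05 in edgeR 2 were lower, *Snai1* (log2 -0.53, SE 0.235, adjusted p = 0.13) and *Prrx1* (-0.44, SE 0.19, adjusted p = 0.12), and 0 were higher. *Snai1* was called with a block for replicate number that spanned the time points (-0.51, adjusted p = 0.049) and without the filter (-0.515, adjusted p = 0.04), and *Prrx1* without *Sox17*-*Erg* replicate 2 of Day 3 (adjusted p = 0.047). In *Sox17*-*Erg* samples 2 factors rose over the same span, where 15.1% of all genes did, and 2 fell, where 15.6% did. *Prrx2* rose by 4.31 (SE 0.52, adjusted p = 0.00089) and *Zeb2* rose by 0.47 (SE 0.14, adjusted p = 0.036). *Twist2* fell by 1.72 (SE 0.41, adjusted p = 0.014) and *Prrx1* fell by 0.71 (SE 0.19, adjusted p = 0.021). Without single libraries of the *Sox17*-*Erg* arm at Day 3 or Week 4, the calls of *Zeb2* (replicate 1 or 2 of Day 3, replicate 1 of Week 4), *Twist2* (the same 3 libraries) and *Prrx1* (replicate 2 of Day 3, either replicate of Week 4) were lost, with adjusted p between 0.05 and 0.14. *Zeb2* also lost its call without control replicate 1 of Week 4 (adjusted p = 0.051). The *Zeb1* change of 0.53 was not called (SE 0.21, adjusted p = 0.081), and it was called without either control library of Day 7 (adjusted p = 0.032 and 0.042) or *Sox17*-*Erg* replicate 2 of Day 7 (adjusted p = 0.043). It was also called without the filter (0.54, adjusted p = 0.025), by DESeq2 (0.57, adjusted p = 0.04) and with GC offset and replicate block (0.645, adjusted p = 0.034), and the last of these also called *Snai1* lower in this arm (-0.515, adjusted p = 0.039).

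The difference between the arms in this change was tested as an interaction. For *Prrx2* the *Sox17*-*Erg* effect at Week 4 exceeded that at Day 3 by 4.67 on the log2 scale (SE 0.71, adjusted p = 0.011), the 1 factor called higher where 2.22% of all genes were. Without control replicate 1 of Day 3 it was 4.32 with adjusted p = 0.057. No factor was called lower, against 0.987% of all genes, with 1 at an unadjusted edgeR p under 0.05 and 0 by DESeq2. That 1 was *Twist2*, at -1.73 (SE 0.56, 95% interval -2.99 to -0.475, adjusted p = 0.15). For the other 6 factors the values lay between -0.505 and 0.23, each with an interval that includes 0.

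Each family gives 2 of the 8 factors, and their ratio within a library does not depend on library size. The log2 ratio of *Zeb1* to *Zeb2* was 0.19, 0.33 and 0.17 in control samples and -0.61, -0.63 and -0.54 in *Sox17*-*Erg* samples at Days 3 and 7 and at Week 4. *Zeb1* was thus the more abundant of the pair in all 6 control libraries by CPM and *Zeb2* in all 6 *Sox17*-*Erg* libraries. Per kilobase of transcript, *Zeb2* made up 31.8 to 37.2% of the Zeb RNA in the control and 45.7 to 53.6% in the *Sox17*-*Erg* libraries, so by that measure *Zeb1* was the more abundant in 4 of the 6 *Sox17*-*Erg* libraries as well. The log2 ratio of *Twist1* to *Twist2* rose from 2.69 to 4.15 at Day 3, from 1.89 to 4.68 at Day 7 and from 2.75 to 5.36 at Week 4 between control and *Sox17*-*Erg*. Those arms did not overlap at any time point either. For *Prrx1* over *Prrx2* the ratio was 7.41 and 7.37 on Day 3, 7.05 and 6.45 on Day 7, and 7.30 and 2.48 at Week 4. The ratio of *Snai1* to *Snai2* moved least on average over the time points (0.29), by 0.15, 0.55 and 0.16, though at Day 3 that of *Prrx1* to *Prrx2* moved less (-0.04). These ratios were chosen after the values were seen and carry no test.

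**Figure D3:**
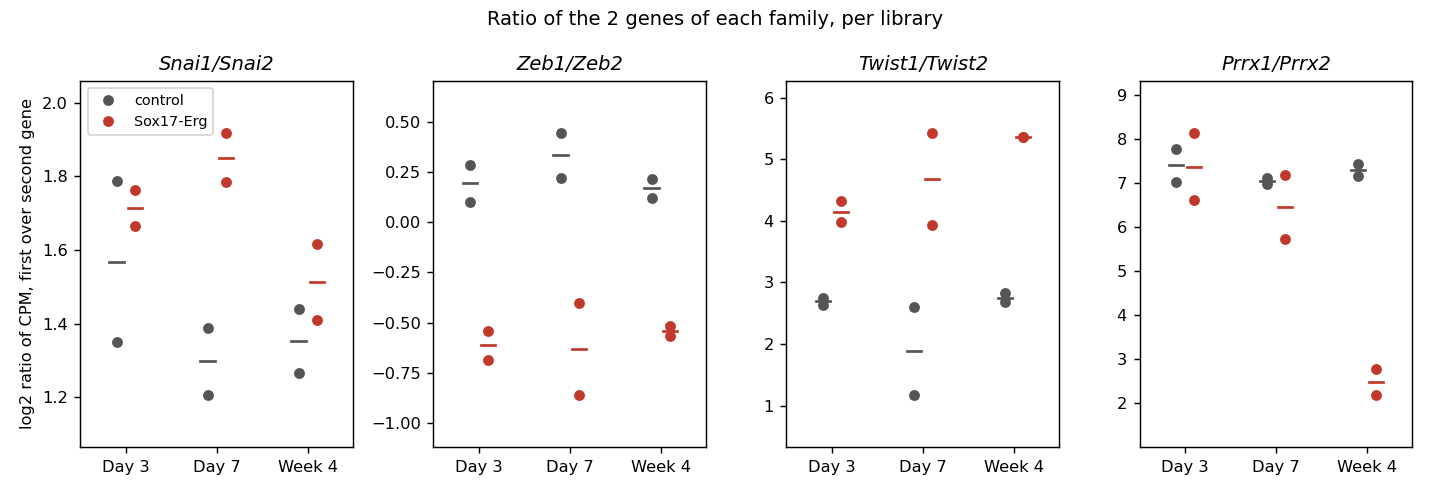
Each panel plots the log2 ratio of CPM of the first over the second gene of a family, with a point for each library (gray for control, red for *Sox17*-*Erg*) and a bar for the mean of 2. *Zeb1*/*Zeb2* lies above 0 in every control library and below 0 in every *Sox17*-*Erg* library, and *Prrx1*/*Prrx2* drops in the *Sox17*-*Erg* libraries of Week 4 to a mean of 2.48.

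Per kilobase of the longest coding transcript, levels can be compared between genes. In control samples of Day 3 the order was *Snai1* (77.6 ± 17.0 CPM per kb, SD, n = 2), *Prrx1* (25.7 ± 2.23), *Zeb1* (22.9 ± 0.624), *Snai2* (20.7 ± 0.13), *Twist1* (19.6 ± 0.563), *Zeb2* (12.8 ± 1.5), *Twist2* (1.93 ± 0.0637) and *Prrx2* (0.648 ± 0.19), and no neighbors overlapped. In *Sox17*-*Erg* samples of Week 4 *Snai1* (34.0 ± 0.392) and *Twist1* (32.6 ± 5.61) led and overlapped, followed by *Zeb1* (21.7 ± 1.80) and *Zeb2* (20.1 ± 2.14), which also overlapped. *Prrx1* (11.9 ± 0.0557) came next, then *Prrx2* (9.84 ± 2.79) and *Snai2* (9.56 ± 1.09), which overlapped, and *Twist2* was last at 0.482 ± 0.0864. In control samples of Week 4 *Snai1* (53.6 ± 1.32) and *Zeb1* (28.2 ± 0.732) led, *Twist1*, *Prrx1*, *Snai2* and *Zeb2* lay between 20.5 and 15.9 with neighbors overlapping, and *Twist2* (1.95 ± 0.501) and *Prrx2* (0.502 ± 0.151) were last. *Prrx2* thus made up 2.54% ± 0.417 of the Prrx RNA per length in control samples of Week 4 and 44.7% ± 6.93 in *Sox17*-*Erg* samples (SD, n = 2). *Twist2* made up 8.62% ± 0.559 of the Twist RNA and 1.46% ± 0.00707, and *Zeb2* 36.2% ± 1.06 of the Zeb RNA and 48.0% ± 0.636. *Snai2* was at 23.9% ± 1.56 and 21.9% ± 1.70 of the Snail RNA. The summed Twist level was 22.4 ± 4.31 CPM per kb in control and 33.0 ± 5.73 in *Sox17*-*Erg* samples of Week 4, and the summed Snail level 70.4 ± 3.18 and 43.6 ± 1.48.

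The genes whose log2 CPM followed each factor most closely over the 12 libraries were named as a description, since the libraries share treatment and time. For *Snai1* they were *Prr33* (Pearson r = 0.968) and *Atp6v0d1* (0.959), for *Snai2* *Pde1a* (0.977) and *Syk* (0.968), and for *Zeb1* *Svil* (0.971) and *Selenbp1* (0.967). *Zeb2* was followed by *Rhoq* (0.959) and *Dmtn* (0.952), *Twist1* by *Rnaseh2c* (0.996) and *Ing1* (0.963), and *Twist2* by *Eci2* (0.953) and *Nmb* (0.952). *Prrx1* was followed by *Adgrg2* (0.97) and *Cog4* (0.947), and *Prrx2* by *Adra2c* (0.973) and *Gm6089* (0.948). No pair of factors was among these. Within the 8, the closest pairs were *Snai1* with *Prrx1* (0.884) and *Snai1* with *Snai2* (0.88), and the most opposed were *Zeb1* with *Twist1* (-0.895) and *Snai2* with *Twist1* (-0.867).

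Partners of the factors held calls in both directions. Of 19 dimer partners and corepressors, 5 were called higher and 1 lower at Day 3, with 5 and 3 by Day 7 and 6 and 3 by Week 4, with a median log2 fold change of 0.25 at Week 4. Beside the 6 and 3 of Week 4 stand 11.9% of all genes called higher and 11% lower, and the shares of all genes at Days 3 and 7, given with the 8 factors above, apply to every list that follows. The block gave 2 lower at Day 3 and 5 higher at Week 4, and without single libraries the counts of Week 4 were 4 to 7 higher and 0 to 3 lower. The E proteins dimerize with Twist factors. *Tcf3*, which encodes E12 and E47, rose at Week 4 from 31.4 ± 0.919 to 68.3 ± 5.85 CPM (SD, n = 2; log2 1.12, SE 0.12, adjusted p = 0.00033). *Tcf4*, another E protein, rose from 226 ± 39.7 to 571 ± 37.0 CPM (log2 1.34, SE 0.18, adjusted p = 0.0011), and both were also called at Day 3 and Day 7. *Tcf12*, the other E protein, was at 103 ± 6.51 and 127 ± 20.7 CPM (log2 0.30, SE 0.12, adjusted p = 0.1), and was called higher without *Sox17*-*Erg* replicate 2 of Week 4 (0.43, adjusted p = 0.037), with values from 0.12 to 0.43 when single libraries were left out. Id proteins bind E proteins and keep them from DNA. *Id4* rose from 2.95 ± 0.259 to 30.9 ± 5.01 CPM at Week 4 (log2 3.385, SE 0.31, adjusted p = 0.00012), and *Id2* fell (log2 -0.67, SE 0.20, adjusted p = 0.04). *Id1* (0.24, adjusted p = 0.41) and *Id3* (-0.20, adjusted p = 0.49) were not called, and *Id1* was called higher without control replicate 1 of Week 4 (0.59, adjusted p = 0.045). *Ajuba*, a LIM protein that binds Snail as a corepressor, rose from 11 ± 0.842 to 29.6 ± 1.46 CPM (log2 1.425, SE 0.22, adjusted p = 0.002). *Limd1*, a related LIM gene of the list, fell from 203 ± 0.182 to 121 ± 1.67 CPM (log2 -0.75, SE 0.20, adjusted p = 0.025). It was called lower at each time point. *Wtip*, also related, was not called (0.38, adjusted p = 0.13). *Hand2*, a cardiac helix-loop-helix factor that can pair with *Twist1*, fell from 253 ± 103 to 103 ± 11.6 CPM (log2 -1.305, SE 0.28, adjusted p = 0.01). The *Hand2* call was lost without control replicate 1 (-0.82, adjusted p = 0.069) or *Sox17*-*Erg* replicate 2 (-1.22, adjusted p = 0.064) of Week 4. The *Id2* call was lost without any 1 of the 4 libraries of Week 4 or either control library of Day 3 (adjusted p between 0.058 and 0.2).

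Another list holds genes that act on the stability of the factor proteins. Of 11, 1 was called higher and 1 lower at Day 3, with 1 and 2 by Day 7 and 2 and 1 by Week 4, and at Week 4 a change of 1 call would move the share of the list past that of all genes (11.9% higher and 11% lower). The block gave 2 higher and 3 lower at each time point. *Gsk3b*, the kinase that marks Snail for degradation, rose at Week 4 from 110 ± 1.07 to 161 ± 8.16 CPM (log2 0.55, SE 0.10, adjusted p = 0.004). *Ctdsp2*, a small phosphatase of the family that stabilizes Snail, fell from 594 ± 51.5 to 337 ± 20.3 CPM (log2 -0.82, SE 0.20, adjusted p = 0.018). *Fbxo11*, an F-box protein that targets Snail, rose by 0.38 (SE 0.12, adjusted p = 0.044). The *Ctdsp2* call was lost without control replicate 1 or either *Sox17*-*Erg* library of Week 4 (adjusted p between 0.052 and 0.11). The *Fbxo11* call was lost in 11 of the 12 fits that left out 1 library (adjusted p between 0.05 and 0.3), the exception being *Sox17*-*Erg* replicate 2 of Week 4, and it was lost with the replicate block over all libraries (0.052), without the filter, with a GC offset, with the GC offset and the block, and in a fit of the Week 4 libraries alone (0.11, 0.07, 0.079 and 0.1).

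Genes of the signaling routes upstream of the factors were followed as a list, which also holds the inhibitory Smads *Smad6* and *Smad7*, and more genes were called higher than lower at each time point both in it and over all genes. Of 23 genes of the TGF-beta, BMP, Notch, hypoxia, YAP and Wnt routes, 4 were called higher and 1 lower at Day 3, with 6 and 4 by Day 7 and 9 and 3 by Week 4, with a median log2 fold change of 0.24 at Week 4. Over all genes 11.9% were called higher and 11% lower at Week 4. Blocked, 7 were higher at Day 3, 9 at Day 7 and 10 at Week 4, and without single libraries the counts of Week 4 were 5 to 10 higher and 2 to 3 lower. *Smad7*, which restrains TGF-beta signaling, is among the genes called higher at each time point (log2 0.80, 0.81 and 0.64, adjusted p = 0.014, 0.0071 and 0.015), and *Smad6* was not called. *Tgfb2*, a ligand of cushion formation, rose from 43.6 ± 10.7 to 437 ± 120 CPM (log2 3.32, SE 0.32, adjusted p = 0.00015). *Jag1*, a Notch ligand, rose from 54.1 ± 5.91 to 537 ± 72.0 CPM (log2 3.31, SE 0.30, adjusted p = 0.00013) and was called at each time point. *Notch1*, a receptor for *Jag1*, rose from 38.1 ± 1.22 to 150 ± 8.96 CPM (log2 1.98, SE 0.17, adjusted p = 8.9e-05). *Tgfbr3*, the coreceptor betaglycan, fell from 274 ± 22.0 to 50.2 ± 5.30 CPM (log2 -2.45, SE 0.46, adjusted p = 0.0054) and was called at each time point. The others called lower at Week 4 were *Tgfbr1* (log2 -0.89, SE 0.11, adjusted p = 0.00059) and *Smad3* (log2 -0.69, SE 0.13, adjusted p = 0.0057). Both were also called lower at Day 7. The *Tgfbr3* call at Week 4 was lost without *Sox17*-*Erg* replicate 1 of Week 4 (-2.35, adjusted p = 0.055).

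Of 14 further transcription factors linked to mesenchymal states, 11 had enough counts for a test, and 3 were called higher and 3 lower at Week 4, after 2 and 3 at Day 3 and 2 and 0 at Day 7, where all genes gave 11.9% higher and 11% lower at Week 4. The 0 at Day 7 from edgeR stands beside 2 at an unadjusted p under 0.05, 2 by DESeq2 and 2 with the replicate block. Leaving out 1 library moved the counts of Week 4 to 1 to 3 higher and 0 to 3 lower. *Snai3*, the third Snail gene, had at most 2 counts in any library. *Scx*, a factor of tendon and valve cells, rose from 0.681 ± 0.1 to 5.30 ± 0.0423 CPM at Week 4 (log2 2.94, SE 0.54, adjusted p = 0.0045). *Tcf21*, which marks cardiac fibroblasts, fell from 452 ± 128 to 103 ± 22.5 CPM (log2 -2.14, SE 0.65, adjusted p = 0.043), and *Sox9*, a factor of cushion and cartilage cells, fell from 45.3 ± 1.54 to 11.2 ± 2.46 CPM (log2 -2.01, SE 0.49, adjusted p = 0.017). The *Sox9* call was lost without any 1 of the 4 libraries of Week 4 (adjusted p between 0.055 and 0.12), and the *Tcf21* call without any 1 of those or either control library of Day 3 (0.061 to 0.21).

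The list of junction and epithelial genes that these factors are known to repress was mostly at low counts, and 10 of its genes had too few for a test. Of 22, 12 had enough counts for a test, and 1 was called higher and 3 lower at Week 4, with a median log2 fold change of -1.10 over the 12 tested, where 11.9% of all genes were higher and 11% lower. With edgeR 1 was higher and 0 lower at Day 3, with 2 lower at an unadjusted p under 0.05 and 1 by DESeq2, and 0 were higher and 3 lower at Day 7, with 1 higher at an unadjusted p and 1 by DESeq2. In the blocked fit it was 1 higher and 2 lower on Day 3, 1 and 5 on Day 7, and 2 higher and 6 lower at Week 4, and without single libraries 0 to 2 higher and 0 to 4 lower. *Tjp1*, which encodes the junction protein ZO-1 and is widely expressed, was the abundant exception, at 160 ± 10.7 and 211 ± 32.3 CPM at Week 4 (SD, n = 2), and was the 1 called higher at Day 3 (log2 0.915, SE 0.175, adjusted p = 0.014). *Cdh1* had at most 6 counts in any library and *Epcam*, an epithelial adhesion molecule, at most 8. The genes called lower at Week 4 were *Krt19* (log2 -2.92, SE 0.72, adjusted p = 0.018), *Pkp2* (log2 -2.14, SE 0.44, adjusted p = 0.0078) and *Krt8* (log2 -1.82, SE 0.50, adjusted p = 0.03), which encode keratins and a desmosomal plakophilin. The mesothelial markers, of which *Krt19* is 1, moved with them. Their summed level was 306 to 1460 CPM in control and 133 to 324 CPM in *Sox17*-*Erg* libraries, none of the 7 was at 0 in any library, and 6 of the 7 were called lower at Week 4. The cardiomyocyte markers summed to 659 to 1550 CPM in control and 337 to 690 CPM in *Sox17*-*Erg* libraries, and 8 of 10 were called lower at Week 4, while *Pkp2* is also a gene of cardiomyocytes. Their part in these changes was not tested. *Cldn1*, a tight junction claudin, rose from 0.164 ± 0.0552 to 1.41 ± 0.262 CPM (log2 3.10, SE 0.60, adjusted p = 0.0057). Without control replicate 1 of Week 4 the calls of *Cldn1* (2.76, adjusted p = 0.062), *Pkp2* (-1.46, adjusted p = 0.056), *Krt8* (-1.15, adjusted p = 0.21) and *Krt19* (-2.92, adjusted p = 0.066) were lost. *Sox17*-*Erg* replicate 2 of Week 4 had the same part for *Pkp2* (adjusted p = 0.059), *Krt8* (0.15) and *Krt19* (0.1), *Sox17*-*Erg* replicate 1 for *Krt8* (0.075) and *Krt19* (0.077), and control replicate 2 for *Krt19* (0.052).

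Genes of the mesenchymal state held calls in both directions. Of 20 matrix, cytoskeleton and adhesion genes, 1 was called higher and 3 lower at Day 3, with 6 and 3 by Day 7 and 5 and 2 by Week 4, with a median log2 fold change of 0.36 at Week 4. Over all genes 11.9% were higher and 11% lower at Week 4, so the 2 lower of 20 lie near that share. In the blocked fit 2 were higher and 4 lower on Day 3, 9 and 4 on Day 7, and 7 and 3 at Week 4, and without single libraries the counts of Week 4 were 3 to 5 higher and 2 to 3 lower. *Postn*, the matricellular protein periostin, rose from 53.9 ± 9.10 to 1440 ± 139 CPM (log2 4.74, SE 0.30, adjusted p = 1.9e-05), and *Tnc*, tenascin C, from 17.5 ± 4.64 to 363 ± 100 CPM (log2 4.37, SE 0.47, adjusted p = 0.00028). *Fn1*, fibronectin, rose by 1.62 (SE 0.355, adjusted p = 0.011). *Cdh11*, the cadherin of mesenchymal cells, fell from 319 ± 53.6 to 82.4 ± 1.83 CPM (log2 -1.95, SE 0.16, adjusted p = 7.6e-05). The *Fn1* call was lost in a fit of the Week 4 libraries alone (adjusted p = 0.058), and without control replicate 2 (1.22, adjusted p = 0.051) or *Sox17*-*Erg* replicate 1 (1.22, adjusted p = 0.074) of Week 4.

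**Figure D4:**
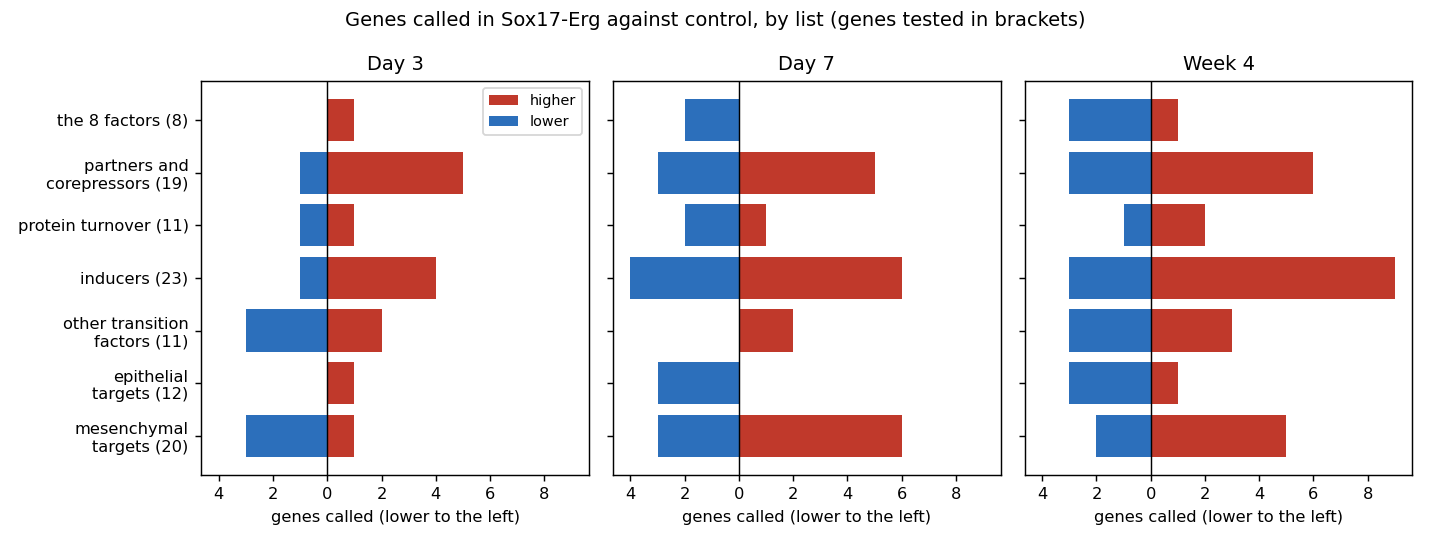
Bars give the number of genes called higher (red, to the right) or lower (blue, to the left) in *Sox17*-*Erg* against control samples, for the 8 factors and the 6 lists around them, at each time point. The number tested stands after each name, and the inducers hold the most calls at Week 4, with 9 higher and 3 lower of 23.

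Markers of cell types gave the setting of these changes. The 10 fibroblast markers summed to 25400 and 30700 CPM in control and 19800 and 31900 CPM in *Sox17*-*Erg* libraries of Day 3, which overlap. On that day edgeR called 1 of the 10 lower (*Tcf21*, log2 -2.815, adjusted p = 0.029) and 0 higher. At an unadjusted edgeR p under 0.05, 6 were lower, and DESeq2 called 6 lower. The median log2 fold change of the 10 was -1.20. At Day 7 the sum was 26600 and 26000 CPM with *Sox17*-*Erg* against 19800 and 24700 CPM, most of it from *Col1a1* (16200 and 14300 against 9050 and 9580 CPM) and *Col1a2* (8880 and 9110 against 6570 and 8290 CPM), which were not called, while *Pdgfra*, *Dcn*, *Lum* and *Dpt* were called lower (log2 between -1.91 and -3.70) and 0 of the 10 higher by edgeR, with 1 at an unadjusted p under 0.05 and 1 by DESeq2. At Week 4 the sum was 9600 and 10700 CPM against 15100 and 13700 CPM. At Week 4, 5 of 10 were called lower (*Pdgfra*, *Dcn*, *Lum*, *Tcf21* and *Dpt*) and *Thy1*, *Pdgfrb*, *Ddr2*, *Col1a1* and *Col1a2* not called. The 10 endothelial markers summed to 20.9 to 61.4 CPM over all control and 314 to 774 CPM over all *Sox17*-*Erg* libraries, and 7 of the 9 with enough counts were called higher at Week 4, while *Cldn5* was at 0 in 4 libraries. The 8 mural cell markers summed to 116 to 340 CPM in control and 716 to 1270 CPM in *Sox17*-*Erg* libraries, with 6 called higher and 2 lower at Week 4. Each of these lists held calls at Week 4, and their part in the factors' values was not tested.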

How the data were processed

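Bulk RNAseq of 12 libraries, 2 in each of 6 groups, was analysed from estimated counts per gene. The authors prepared stranded mRNA libraries (Kapa), sequenced them as 2 × 50 paired-end reads, demultiplexed with bcl2fastq 2.20.0, trimmed high GC content with BBDuk, quantified with Salmon (version not given in the sources used here) and deposited the estimated counts rounded to whole numbers, for mm10 per the labels and with no scaling for library size. Symbols and positions came from GENCODE M21 (GRCm38), which named 35493 of 35727 genes, and promoter sequences from RefSeq (GRCm38.p6), used for 6 of the 8 factors and not for *Zeb1* and *Snai2*.

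Counts were normalized by TMM and fitted with edgeR 4.0.16 in R 4.3.3 (filterByExpr with minimum count 10 and total 15, quasi-likelihood test, 1 mean per group, 6 residual degrees of freedom, Benjamini-Hochberg over 15506 genes, adjusted p under 0.05). Log2 CPM used a prior count of 2. Groups came from the sample labels. The factors and the lists were chosen with earlier results of these data known. All 8 factors were named, and from each list the 4 genes with the largest log2 fold change among those called at Week 4, with the E proteins, the Id genes and *Snai3*. One gene that this rule names is not reported here. The 2 genes most like each factor were those with the highest Pearson r. *Cdh1* and *Epcam* were named after their counts were seen. *Smad3*, *Smad6*, *Smad7*, *Tgfbr1*, *Limd1*, *Wtip* and *Tjp1* are also outside this rule and were named after their values were seen. Equal replicate numbers come from the titles, and the methods state that viruses of compared conditions were made on the same day. Deviations of same-numbered libraries from their group means correlated across genes between the arms by 0.186, 0.301 and 0.171 at Days 3 and 7 and at Week 4. They were taken as pairs within a time point. Within an arm they also correlated between Days 3 and 7, by 0.174 in control and 0.219 in *Sox17*-*Erg* samples. Between Week 4 and the earlier days the values lay from -0.11 to -0.049. Alternatives were DESeq2 1.42.0, its size factors, other filters, an adjusted p under 0.01, the replicate block, a GC offset, fits of single time points and leaving out each library. Applying these to the listed genes was chosen after seeing the data. Replicates correlated by 0.969 to 0.979 and differed by 27.8 to 71.6 chi-square per degree of freedom, far beyond counting error. The scripts were tested on simulated data.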

Additional observations from a re-analysis of the deposited data

Results flagged for a closer look

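The *Sox17*-*Erg* effect on *Prrx2* differed between time points by a test of the difference itself. It was 4.67 larger on the log2 scale at Week 4 than at Day 3 (edgeR interaction, SE 0.71, 95% interval 3.06 to 6.28, adjusted p = 0.011). Both *Sox17*-*Erg* libraries of Week 4, with 481 and 306 counts, lay over the 19 and 11 counts of Day 3, while the control libraries held 35 and 14 counts at Week 4 and 31 and 16 at Day 3. Without single libraries the value ran from 4.23 to 5.29, with adjusted p between 0.0072 and 0.057.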

How the results depend on the processing

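Of 432 values of the 8 factors under other settings, 373 kept their direction and their side of the threshold, 46 passed it newly, 11 lost it and 2 turned sign, and of 576 values with 1 library left out the numbers were 510, 21, 32 and 13. The 2 that turned were the *Snai1* interaction, 0.06 as reported, -0.067 with a GC offset and -0.044 with the GC offset and the block. At Week 4 *Prrx2* stayed called throughout, between 3.94 and 4.63. With a lone sample in an arm its spread was taken from the other groups. With 2 libraries per group and 6 residual degrees of freedom, calls near the threshold move easily, and the cause of single lost calls was not tested.

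At Day 3, 0 factors were lower as reported, 1 with DESeq2 size factors, with a minimum count of 50 or with a GC offset, 2 with the replicate block over all libraries or in the Day 3 fit alone, and 3 without a filter, with the block within time points, with GC offset and block, and with DESeq2. At Day 7, 1 was higher without a filter, with either block, with GC offset and block, and with DESeq2, and the 2 lower became 4 with the block within time points and 0 in the Day 7 fit alone. At Week 4 the counts were 2 higher without a filter, and 2 higher and 5 lower with the block within time points. In control samples 1 was lower without a filter or with the block over all libraries. The interaction had 1 lower without a filter. At an adjusted p under 0.01, 0 were higher at Day 3, 0 lower at Day 7, 1 lower at Week 4, 1 higher and 0 lower in *Sox17*-*Erg* samples over time, and 0 higher in the interaction.

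Over all genes, 1910, 2700 and 3548 were called at Days 3 and 7 and at Week 4. The block within time points gave 3592 at Day 3 and 4207 at Day 7, and the Day 7 fit alone 1088. An adjusted p under 0.01 gave 421, 1101 and 1822, 1719 in control and 2120 in *Sox17*-*Erg* samples over time, and 123 for the interaction, which had 498 as reported, 1179 without a filter and 1008 with DESeq2.

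Leaving out 1 library gave 0 to 1 factors higher and 0 to 3 lower on Day 3, 0 to 1 and 0 to 4 on Day 7, and 1 to 2 and 0 to 4 at Week 4. It gave 0 to 1 lower in control samples, 1 to 3 higher and 0 to 2 lower in *Sox17*-*Erg* samples over time, and 0 to 1 higher in the interaction. Over all genes it gave 272 to 1992, 920 to 2508 and 1697 to 3577 at the 3 time points, 1775 to 4191 and 2125 to 4809 over time in control and *Sox17*-*Erg* samples, and 171 to 481 for the interaction. Values that turned sign ran from -1.02 to 0.029 for *Prrx2* at Day 3, -0.55 to 0.73 for *Prrx2* and -0.007 to 0.37 for *Zeb2* at Day 7, -0.14 to 0.25 for *Twist1* and -0.275 to 0.26 for *Twist2* in control samples, and -0.45 to 0.045 for *Snai2* in *Sox17*-*Erg* samples. In the interaction they ran from -0.19 to 0.42 for *Snai1*, -0.17 to 0.34 for *Snai2* and -0.50 to 0.068 for *Prrx1*, and at Week 4 from -0.037 to 0.59 for *Id1* and -0.43 to 0.09 for *Id3*.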
